A study of Mus musculus with 20 samples.

Results

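The 49 genes described here encode the enzymes that take glucose to pyruvate and lactate, carry pyruvate into the mitochondrion, and run the tricarboxylic acid (TCA) cycle, with the linked malic enzymes and the entry to the pentose phosphate pathway. They were chosen by name and role, with earlier results of these data known but no threshold on a measured value. All 49 were found among the 24411 gene symbols of each table. Smart-seq2 libraries, primed on poly(A) RNA with oligo-dT, were made from untreated mouse eggs or embryos in batches of 10 to 15. Eggs of every group had matured in culture for 12 h in M16 medium after release from dbcAMP, a cAMP analog that holds oocytes before maturation. Embryos came from in vitro fertilization with GSH (glutathione) and were grown in KSOM under 5% oxygen. The C57BL/6J inbred strain was sampled as MII eggs (arrested in the second meiotic metaphase), G1 zygotes, G2 zygotes and G2 2-cell embryos, with 3 samples in each group. The B6CASTF1 hybrids were sampled as G1 zygotes (3 samples), G2 zygotes (3 samples) and G2 2-cell embryos (2 samples used here), and which parent was which in that cross is not stated in the sources. The labels do not say whether samples came from separate females or cultures, so each p reflects the spread between these samples alone, which may be technical.

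In most cells, glucose is split in the cytosol into pyruvate, which lactate dehydrogenase exchanges with lactate or which the mitochondrial pyruvate carrier passes to the pyruvate dehydrogenase complex and the TCA cycle. The mouse egg and the first-cleavage embryo are known for living on pyruvate and using glucose poorly, with glucose use rising later in preimplantation growth. Many steps are served by isozymes from separate genes, and several mitochondrial steps need complexes whose subunits also come from separate genes. The change from maternal to embryonic messages spans the stages sampled here, with the main wave of mouse genome activation in the 2-cell embryo.

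The deposited tables give, for each gene, a mean normalized count over the strain's samples and, for each step between neighboring stages, a log2 fold change (later over earlier stage) with its standard error (SE) and an adjusted p. From these an approximate level per stage, in normalized counts, was solved for each gene. Values of single samples are not listed in the tables, which leaves their depth and spread unknown. Linear folds are not given where a level was under 1, and a log2 fold change there depends on that low level. The words higher, lower, rose and fell mark an adjusted p under 0.05 in the authors' test. Each change is relative to how the authors normalized that strain, and the steps of a strain share their middle stages. Neither the amount of RNA per embryo or per cell nor the length of poly(A) tails was measured.

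Promoter sequences of 3 members that anchor the results below are shown first, as the 250 bases before the RefSeq start site on GRCm38.p6, read 5′ to 3′ on the gene's strand: the main maternal lactate dehydrogenase gene Ldhb (chr6:142507958-142508207, minus strand), its isozyme Ldha (chr7:46845554-46845803, plus strand, the more upstream of its RefSeq starts) and the mitochondrial malate dehydrogenase gene Mdh2 (chr5:135778399-135778648, plus strand). Capitals mark a match to TCAAGGNCA, the element read by Nr5a2 and the estrogen-related receptors (on the opposite strand in Ldhb), to the E-box CACGTG in Ldha, and to the palindrome CTCGCGAG in Mdh2.
Ldhb: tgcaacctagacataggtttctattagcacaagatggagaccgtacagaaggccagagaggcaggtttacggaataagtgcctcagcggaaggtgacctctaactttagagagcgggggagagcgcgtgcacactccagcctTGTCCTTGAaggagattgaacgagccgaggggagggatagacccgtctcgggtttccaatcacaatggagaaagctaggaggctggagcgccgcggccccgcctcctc
Ldha: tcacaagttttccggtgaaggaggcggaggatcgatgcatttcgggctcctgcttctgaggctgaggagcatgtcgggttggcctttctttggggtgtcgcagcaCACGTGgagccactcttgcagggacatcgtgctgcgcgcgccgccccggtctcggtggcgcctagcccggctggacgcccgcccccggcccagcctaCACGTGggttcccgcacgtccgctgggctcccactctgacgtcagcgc
Mdh2: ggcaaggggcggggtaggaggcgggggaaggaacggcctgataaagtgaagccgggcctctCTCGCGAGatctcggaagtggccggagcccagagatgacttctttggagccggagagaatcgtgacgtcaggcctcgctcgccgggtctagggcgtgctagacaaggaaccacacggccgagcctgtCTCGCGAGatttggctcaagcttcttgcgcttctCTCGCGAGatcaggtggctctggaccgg
Of the 45 members with a promoter in the RefSeq table, Ldhb was the 1 that held TCAAGGNCA in this window on either strand, against 1.59% of all 27025 genes. CACGTG stood in 5 of the 45 (Ldha, Ogdh, Pcx, Pdk2 and Pfkm), against 6.86% of genes, and GCATGCGC, the core of the Nrf1 element, in 2 (Ogdh and Pgam1), against 2.56%. CTCGCGAG, searched after the Mdh2 sequence had been seen, occurred 3 times in Mdh2, in no other member, and in 0.862% of genes. No match of one motif overlapped a match of another in the members. A match describes the letters only, and a gene without one is not thereby free of the factor.

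Ldhb dominated the set before the 2-cell stage and then gave way to mitochondrial genes. Per kilobase of transcript, Ldhb alone made up 86.0% of the members' summed level in MII eggs, 75.0% in G1 zygotes and 73.4% in G2 zygotes of C57BL/6J, and 4.73% in their 2-cell embryos. The same share was 79.7% in G1 zygotes, 74.3% in G2 zygotes and 8.55% in 2-cell embryos of B6CASTF1. In 2-cell embryos of both strains the 2 highest members per kilobase were Mpc1, a subunit of the mitochondrial pyruvate carrier, and Mdh2. Mpc1 took 24.7% and Mdh2 24.3% of the sum in C57BL/6J, against 16.9% and 14.7% in B6CASTF1. The bars of shares by strain and stage show a Ldhb block that fills most of each egg and zygote bar and a small part of both 2-cell bars.

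**Figure D1:**
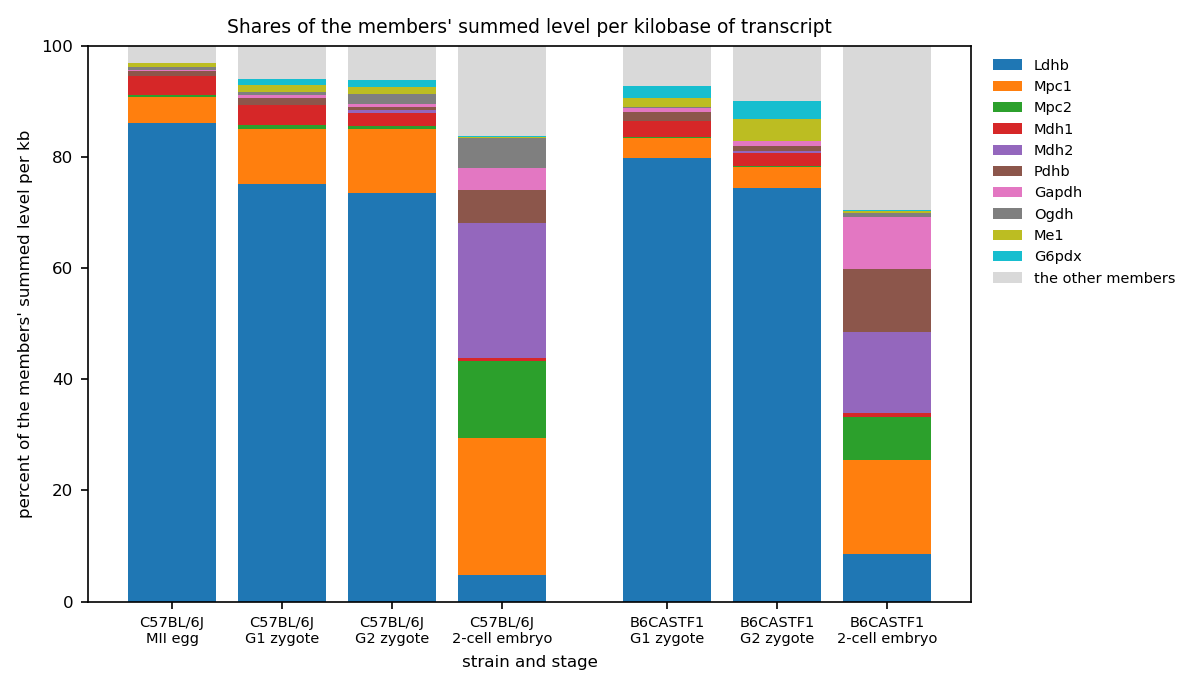
Each bar is one strain and stage, and its blocks are the percent of the 49 members' summed level per kilobase that each of 10 genes takes, with the other members in grey. Ldhb fell from 73.4% of the sum in C57BL/6J G2 zygotes to 4.73% in 2-cell embryos, where Mpc1 (24.7%), Mdh2 (24.3%) and Mpc2 (13.8%) were the largest blocks.

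Counted over steps, few members changed between egg and zygote and most of the changes came at the 2-cell step. From the MII egg to the G1 zygote of C57BL/6J, 0 members were higher (background 1.62% of 13551 genes tested) and 1 of the 45 members with an adjusted p was lower (background 1.12%), per the authors' DESeq2 test. At an unadjusted p under 0.05 these counts were 4 higher and 4 lower. From G1 to G2 zygotes of C57BL/6J, 5 of 45 were higher (background 5.01%) and 0 lower (background 2.87%) by the same test, or 7 and 0 at an unadjusted p under 0.05. At the same step in B6CASTF1, 7 of 47 were higher and 6 lower, against backgrounds of 9.63% and 9.63%. At the 2-cell step of C57BL/6J, 15 of 44 were higher and 6 lower, where 25% and 25.3% of all tested genes were called. In B6CASTF1 that step had 24 of 48 members higher and 16 lower, beside 33.1% and 26.8% of tested genes. The members' median log2 fold change at the 2-cell step was 0.80 in C57BL/6J and 1.40 in B6CASTF1, where the median of all tested genes was 0.17 and 0.55.

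**Figure D2:**
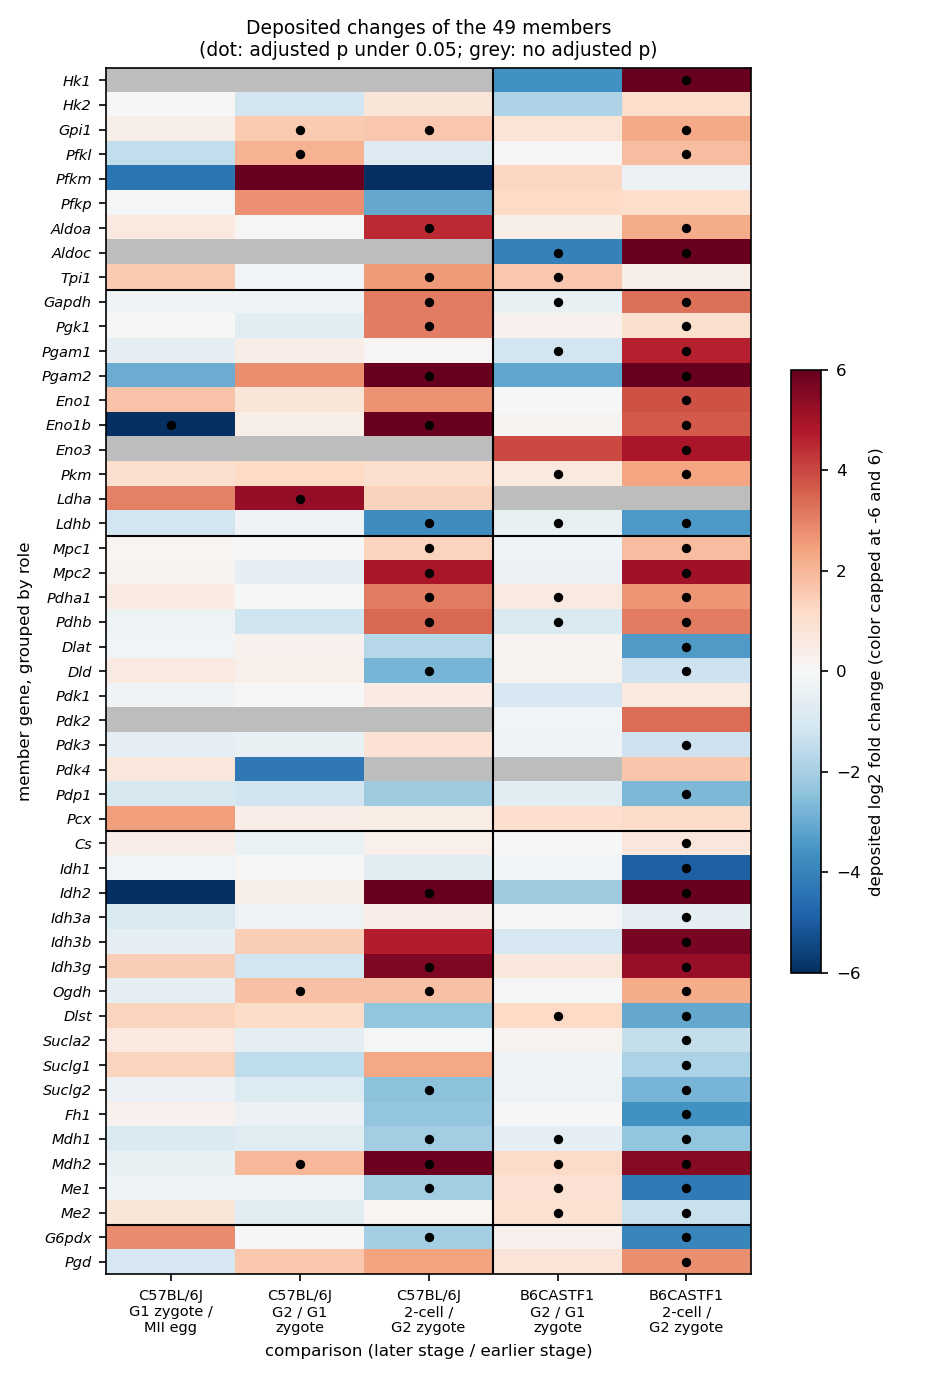
Rows are the 49 members by role and columns the 5 deposited comparisons, with color for the log2 fold change, a dot for an adjusted p under 0.05 and grey where no adjusted p is listed. The 2-cell columns carry 21 dots in C57BL/6J and 40 in B6CASTF1, against 1 dot in the column of G1 zygotes against MII eggs.

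Among upper glycolysis genes, from hexokinase to triosephosphate isomerase, those called at the 2-cell step were all higher. Of its 9 genes, 3 of the 7 with an adjusted p were higher in C57BL/6J (background 25%) and 5 of 9 in B6CASTF1 (background 33.1%). At backgrounds of 25.3% and 26.8%, 0 were called lower by the authors' DESeq2 test, against 2 in C57BL/6J and 0 in B6CASTF1 at an unadjusted p under 0.05. Aldoa, the aldolase that splits fructose bisphosphate, stood at 61.2, 91.5, 96.4 and 2146 in MII eggs, G1 zygotes, G2 zygotes and 2-cell embryos of C57BL/6J and at 470.2, 592 and 2768 in G1, G2 and 2-cell stages of B6CASTF1. The 2-cell stage was the high one in both strains. The authors' deposited table gave Aldoa a 2-cell value on the log2 scale of 4.48 ± 1.07 (SE, adjusted p = 0.000128) in C57BL/6J and 2.23 ± 0.34 (SE, adjusted p = 3.16e-10) in B6CASTF1. For its isozyme Aldoc no p, adjusted or not, is listed in C57BL/6J, where its levels were at most 48.6. The reason is not stated. In B6CASTF1 Aldoc went from 0.321 in G2 zygotes to 611 in 2-cell embryos (adjusted p = 3.61e-12 per the authors' deposited table).

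Gpi1, which turns glucose 6-phosphate into fructose 6-phosphate, was called at both later steps of C57BL/6J. Its levels ran 177, 223, 667 and 2069.8 from egg to 2-cell embryo in that strain and 219.6, 388 and 1890.3 from G1 zygote to 2-cell embryo in B6CASTF1. The authors' deposited table lists log2 fold changes of 1.58 ± 0.46 (SE, adjusted p = 0.0126) from G1 to G2 and 1.63 ± 0.46 (SE, adjusted p = 0.00126) at the 2-cell step of C57BL/6J, and 2.28 ± 0.36 (SE, adjusted p = 1.04e-09) at the 2-cell step of B6CASTF1. Tpi1, the isomerase of the 2 triose phosphates, rose at different steps. In C57BL/6J it was at 46.9, 141, 126 and 745, with the rise at the 2-cell step (2.56 ± 0.65 (SE, adjusted p = 0.000329) per the authors' deposited table). In B6CASTF1 it was at 334, 1032 and 1327, with the called rise already between G1 and G2 zygotes (1.63 ± 0.33 (SE, adjusted p = 1.86e-05) per the authors' deposited table).

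Hexokinase and phosphofructokinase, the regulated entry steps, were low. Hk2 did not pass the test at any step, with levels of 99.9, 99.3, 46.3 and 76.6 in C57BL/6J and 75.9, 21.1 and 43.9 in B6CASTF1. Hk1 was near 0 in eggs and zygotes of C57BL/6J with 76.5 in 2-cell embryos, and no p, adjusted or not, is listed there. In B6CASTF1 Hk1 went from 0.605 in G2 zygotes to 159 in 2-cell embryos, a rise with an adjusted p of 0.000403 per the authors' deposited table. Among the phosphofructokinase genes, Pfkl rose from 39.2 to 164 between G1 and G2 zygotes of C57BL/6J (2.07 ± 0.69 (SE, adjusted p = 0.0373) per the authors' deposited table) and from 90.6 to 328 at the 2-cell step of B6CASTF1 (1.86 ± 0.72 (SE, adjusted p = 0.0189) per the authors' deposited table). The muscle form Pfkm and the platelet form Pfkp passed the test at no step. Pfkm levels were 3.15, 0.149, 36.7 and 0.244 in C57BL/6J, with an adjusted p of 0.05 at the 2-cell step per the authors' deposited table, and Pfkp levels were 21.0, 19.4, 129 and 15.3. Both were called lower at that step of C57BL/6J when changes were recentred on the median of well measured genes.

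The lower glycolysis genes called at the 2-cell step were higher, apart from Ldhb. Of its 10 genes, 4 of the 9 with an adjusted p were higher in C57BL/6J (background 25%) and 8 of 9 in B6CASTF1 (background 33.1%), and Ldhb was the 1 called lower in both. Several of these genes share sequence with processed pseudogenes, so reads could have been divided among copies: 84.1% of the 31-base words of Gapdh, 68.3% of Pgk1, 50.9% of Pkm and 41.4% of Ldhb also occur in transcripts of other genes. The 12 members that share at least 30% of their words are Gpi1, Aldoa, Gapdh, Pgk1, Pgam1, Eno1, Eno1b, Pkm, Ldha, Ldhb, Pdhb and Me1. Without them, 9 members were called higher at the 2-cell step in C57BL/6J and 15 in B6CASTF1. With all members these counts were 15 of 44 and 24 of 48. In the smaller set the share called higher was nearer the background in both strains. Gapdh, the glyceraldehyde 3-phosphate dehydrogenase often used as a reference gene, had levels of 798, 693, 577 and 5025 in C57BL/6J and 1699.9, 1253 and 12563 in B6CASTF1. Its 2-cell level was thus the highest of the series in each strain. Log2 fold changes of 3.12 ± 0.63 (SE, adjusted p = 4.59e-06) and 3.33 ± 0.18 (SE, adjusted p = 5.23e-74) were listed for that step per the authors' deposited table. Pgk1, which makes the first ATP of the pathway, went from 167 to 1396 in C57BL/6J and from 1154 to 2243 in B6CASTF1, with 3.06 ± 0.67 (SE, adjusted p = 2.69e-05) and 0.96 ± 0.31 (SE, adjusted p = 0.00444) per the authors' deposited table. Pkm, pyruvate kinase, had 145, 278, 641 and 1229.8 in C57BL/6J, where no step passed the test, and 1006, 1529.7 and 7976 in B6CASTF1, where both did. For Pkm in B6CASTF1 the authors' deposited table gives 0.61 ± 0.18 (SE, adjusted p = 0.00787) and then 2.38 ± 0.20 (SE, adjusted p = 1.21e-30).

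Of the phosphoglycerate mutases, which move a phosphate within phosphoglycerate, Pgam2 rose at the 2-cell step of both strains and Pgam1 in B6CASTF1. Pgam2, the muscle form, stood at 1.19, 0.15, 1.04 and 1888 in C57BL/6J and 1.45, 0.165 and 1055 in B6CASTF1, so it was near 0 in eggs and zygotes and high at the 2-cell stage. The authors' deposited table lists 10.83 ± 1.13 (SE, adjusted p = 4.93e-20) for C57BL/6J and 12.64 ± 1.31 (SE, adjusted p = 3.59e-21) for B6CASTF1, sizes that depend on zygote levels near or under 1. Pgam1, the widespread form, had levels between 113 and 163 in all 4 stages of C57BL/6J. No step passed the test there, but with an SE of 1.51 at each step a steady level is not shown. In B6CASTF1 Pgam1 went 219, 99.8 and 2501, with a called fall (-1.13 ± 0.38 (SE, adjusted p = 0.0204)) and then a called rise (4.65 ± 0.42 (SE, adjusted p = 3.7e-27)) per the authors' deposited table. Per kilobase, Pgam2 was 96.2% of the pair in 2-cell embryos of C57BL/6J and 47.1% in those of B6CASTF1. These shares are uncertain, as 42.1% of the 31-base words of Pgam1 also occur in transcripts of other genes.

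Enolase is encoded here by Eno1, its near copy Eno1b and the muscle form Eno3. Eno1 levels were 54.5, 177, 295 and 1928 in C57BL/6J and 342, 344 and 4791 in B6CASTF1, where the 2-cell rise was called (3.80 ± 0.66 (SE, adjusted p = 3.17e-08) per the authors' deposited table). Eno1b was the member called lower after fertilization, from 60.9 in MII eggs to 0.15 in G1 zygotes of C57BL/6J (adjusted p = 0.0186 per the authors' deposited table). In the same step Eno1 stood at 54.5 and 177. The transcripts of the pair can hardly be told apart by short sequence, since 80.9% of the 31-base words of Eno1b also occur in Eno1, so the values of either are uncertain. Summed, the pair had 115, 177, 296 and 2518 in C57BL/6J and 536, 561 and 7537 in B6CASTF1. The sum was highest at the 2-cell stage in both. Eno3 has no fold change listed in C57BL/6J and went from 3.23 to 96.0 in B6CASTF1 (adjusted p = 0.0354 per the authors' deposited table).

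Lactate dehydrogenase showed the largest fall in level of the set. Ldhb, the B subunit that is abundant in the mouse egg, was at 191477, 86827, 74644 and 5599 in MII eggs, G1 zygotes, G2 zygotes and 2-cell embryos of C57BL/6J and 151967, 113186 and 10488 in the 3 stages of B6CASTF1. The 2-cell embryo was the low stage, 13.3 times below the G2 zygote in C57BL/6J and 10.8 times in B6CASTF1. Log2 fold changes of -3.74 ± 0.44 (SE, adjusted p = 6.04e-16) and -3.43 ± 0.15 (SE, adjusted p = 3.98e-108) stand per the authors' deposited table for these steps. The lower level in G1 zygotes than in MII eggs did not pass the test (-1.14 ± 0.44 (SE, adjusted p = 0.201) per the authors' deposited table). From G1 to G2 zygotes Ldhb also fell in B6CASTF1, with a log2 fold change of -0.43 ± 0.14 (SE). At that step of C57BL/6J it was not called (-0.22 ± 0.44 (SE)).

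Ldha, the A subunit typical of glycolytic tissue, was at 0.593, 4.77, 185 and 477 in C57BL/6J and 117, 30.3 and 1056 in B6CASTF1. Its called rise in C57BL/6J was between G1 and G2 zygotes (5.28 ± 1.57 (SE, adjusted p = 0.015) per the authors' deposited table), and no p is listed for it in B6CASTF1. Per kilobase, Ldhb still made up 94.2% of the pair in 2-cell embryos of C57BL/6J and 93.3% in those of B6CASTF1, against 99.8% and 99.98% in G2 zygotes. Ldhb thus stayed the more abundant of the pair at every stage measured.

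**Figure D3:**
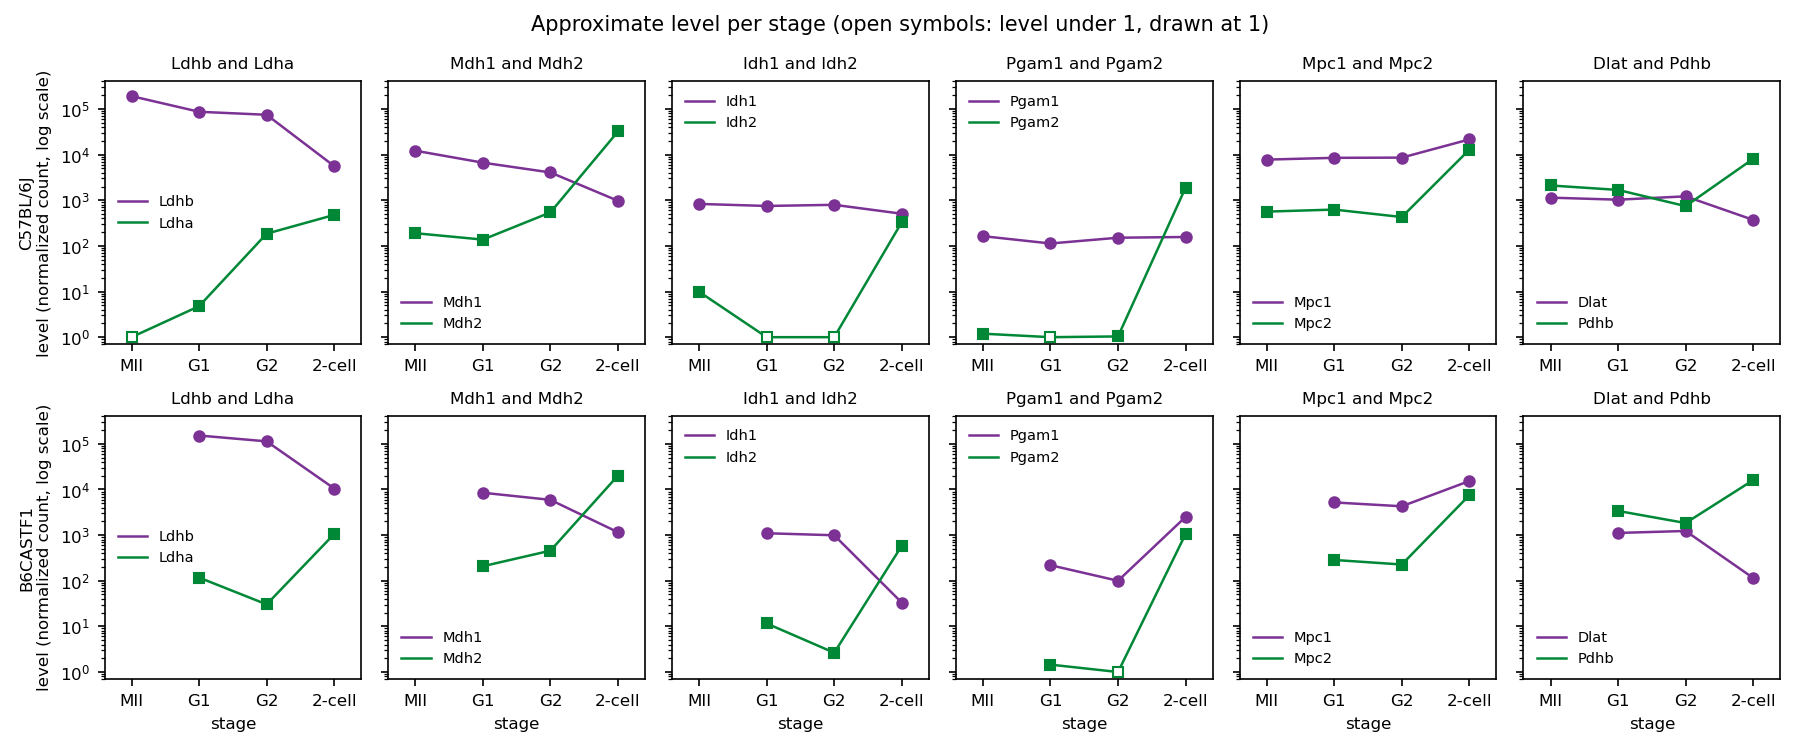
Approximate level per stage (normalized counts, log scale) of 6 gene pairs in C57BL/6J (upper row) and B6CASTF1 (lower row), with open symbols for levels under 1. Ldhb and Mdh1 run downward and Mdh2, Pgam2 and Mpc2 upward at the 2-cell stage in both strains. Pgam1 rises in B6CASTF1 and lies between 113 and 163 in C57BL/6J, where no step was called.

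Of the genes for pyruvate entry into the mitochondrion, the carrier and E1 genes rose at the 2-cell step and Dld fell in both strains. Of 12 genes, 4 of the 10 with an adjusted p were higher and 1 lower in C57BL/6J, and 4 of 12 were higher and 4 lower in B6CASTF1. Of all genes, 25% and 25.3% were called higher and lower in C57BL/6J and 33.1% and 26.8% in B6CASTF1, so the B6CASTF1 shares were near the background. The 4 higher genes were the same in both strains, namely both carrier subunits and both subunits of the first enzyme (E1) of the pyruvate dehydrogenase complex. Mpc1 stood at 7777, 8501, 8595 and 21554 in C57BL/6J and 5195, 4278 and 15318 in B6CASTF1. Its partner Mpc2, with which it forms the carrier, was far lower before the 2-cell stage, at 564, 625, 429 and 12883 and 285, 227 and 7504. Both rose, and the rise of Mpc2 was the larger on the log2 scale. In the authors' deposited table, Mpc2 has log2 fold changes of 4.91 ± 0.49 (SE, adjusted p = 3.14e-22) and 5.05 ± 0.40 (SE, adjusted p = 1.89e-35), and Mpc1 has 1.33 ± 0.20 (SE, adjusted p = 5.31e-10) and 1.84 ± 0.19 (SE, adjusted p = 5.65e-22).

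Within the pyruvate dehydrogenase complex, the E1 genes rose at the 2-cell step while the E2 and E3 genes were lower or did not pass the test. Pdhb, the E1 beta subunit, had 2108, 1684, 744 and 8088 in C57BL/6J and 3380.1, 1836 and 16002 in B6CASTF1, so it was lowest in G2 zygotes. Pdha1, the E1 alpha subunit, had 205, 293, 299.7 and 2562 and 389.7, 561 and 3520.3. Between G1 and G2 zygotes of B6CASTF1, Pdhb fell (-0.88 ± 0.13 (SE)) while Pdha1 rose (0.52 ± 0.19 (SE)). Neither was called at that step of C57BL/6J. For the 2-cell step the authors' deposited table gives Pdhb 3.44 ± 0.61 (SE, adjusted p = 1.25e-07) and 3.12 ± 0.14 (SE, adjusted p = 3.37e-107), and Pdha1 3.10 ± 0.64 (SE, adjusted p = 7.82e-06) and 2.65 ± 0.21 (SE, adjusted p = 3.8e-36). The Pdhb values are less certain, as 41.9% of its 31-base words also occur in transcripts of other genes. That share was 2.38% for Pdha1 and 0% for Dlat and Dld. Dlat, the E2 acetyltransferase core, went 1140.5, 1029.6, 1219 and 372 in C57BL/6J and 1115, 1230.2 and 115 in B6CASTF1. The fall of Dlat was called in B6CASTF1 (-3.42 ± 0.42 (SE, adjusted p = 1.76e-15)) and not in C57BL/6J (-1.71 ± 0.83 (SE, adjusted p = 0.0747)), per the authors' deposited table, where it passed after recentring. Dld, the E3 dehydrogenase that several mitochondrial complexes share, had 716, 1029, 1282 and 186 and 2113, 2477 and 1044, and its 2-cell fall was called in both strains, with -2.78 ± 0.45 (SE, adjusted p = 6e-09) and -1.25 ± 0.20 (SE, adjusted p = 4.45e-09) per the authors' deposited table.

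The genes for the kinases that switch the complex off, and Pdp1, for a phosphatase that switches it on, were called higher at no step. Pdk1 passed the test at no step, with levels of 186, 159, 159.8 and 228 in C57BL/6J and 345, 171 and 259 in B6CASTF1. Pdk3, the most abundant kinase gene in B6CASTF1 zygotes at 1252 in G2, was 536 in 2-cell embryos (adjusted p = 0.00823 per the authors' deposited table), and in C57BL/6J it passed at no step. Pdk2 and Pdk4 stayed at or under 48.6 at every stage and were called nowhere. The phosphatase gene Pdp1 had 1747, 885, 389 and 89.3 in C57BL/6J, called at no step, and 2665, 1677 and 259 in B6CASTF1, with a called fall of -2.69 ± 0.31 (SE, adjusted p = 1.74e-17) per the authors' deposited table. Pcx, pyruvate carboxylase, stayed between 7.21 and 74.4 in all groups and passed no test.

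TCA cycle genes were called in both directions at the 2-cell step. Of 16 genes, 4 were higher and 3 lower at the 2-cell step of C57BL/6J, and 6 higher and 10 lower in B6CASTF1, where each of the 16 passed the test. Beside backgrounds of 25% higher and 25.3% lower in C57BL/6J and 33.1% and 26.8% in B6CASTF1, the shares called higher were near those of all genes. The malate dehydrogenase genes moved in opposite directions. Mdh1, the cytosolic form, went 12183, 6663, 4066 and 973 in C57BL/6J and 8473, 5917 and 1154 in B6CASTF1, with the 2-cell embryo the lowest stage in both. Mdh2, the mitochondrial form, went 189.8, 137, 542 and 32149 and 208, 456 and 20176, with the 2-cell embryo far above every other stage. Per kilobase, Mdh2 rose from 16.3% of the pair in G2 zygotes to 98.0% in 2-cell embryos of C57BL/6J and from 10.1% to 96.2% in B6CASTF1. The authors' deposited table gives Mdh2 1.98 ± 0.35 (SE, adjusted p = 1.43e-06) from G1 to G2 and 5.89 ± 0.34 (SE, adjusted p = 4.42e-64) at the 2-cell step in C57BL/6J, and 1.13 ± 0.30 (SE, adjusted p = 0.00189) and 5.47 ± 0.33 (SE, adjusted p = 7.45e-60) in B6CASTF1. Mdh2 was the member called higher at the G1 to G2 step in both strains. Mdh1 has 2-cell values of -2.06 ± 0.55 (SE, adjusted p = 0.000585) and -2.36 ± 0.19 (SE, adjusted p = 3.53e-34) per the authors' deposited table. It also fell from G1 to G2 zygotes of B6CASTF1 (-0.52 ± 0.17 (SE)) and was not called at that step of C57BL/6J (-0.71 ± 0.55 (SE)).

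Isocitrate dehydrogenase exists as cytosolic Idh1, mitochondrial NADP-linked Idh2 and the mitochondrial NAD-linked enzyme of the cycle, built from Idh3a, Idh3b and Idh3g. Idh2 was at 9.88, 0.15, 0.193 and 332 in C57BL/6J and 11.6, 2.64 and 584 in B6CASTF1, so its level in poly(A) RNA was low until the 2-cell stage. The rise was called in both strains, with 10.74 ± 3.23 (SE, adjusted p = 0.00262) and 7.79 ± 1.05 (SE, adjusted p = 4.92e-13) per the authors' deposited table. The size in C57BL/6J depends on a G2 zygote level under 1. Idh1 had 832, 749.8, 795 and 507 in C57BL/6J, where no step passed, and 1098, 991 and 33.1 in B6CASTF1, with a 2-cell value of -4.90 ± 0.53 (SE, adjusted p = 7.74e-20) per the authors' deposited table. Within the NAD-linked enzyme, Idh3g of the regulatory subunits rose in both strains, Idh3b rose in B6CASTF1, and Idh3a was called higher in neither. Idh3g had 48.7, 138, 61.6 and 2994 and 109.7, 176 and 6597, called at the 2-cell step of both strains (5.60 ± 1.40 (SE, adjusted p = 0.000259) and 5.23 ± 0.45 (SE, adjusted p = 2.48e-30) per the authors' deposited table). Idh3b had 5.75, 3.96, 11.0 and 285 in C57BL/6J, not called (4.69 ± 2.83 (SE, adjusted p = 0.156)), and 73.8, 36.4 and 1877 in B6CASTF1, called (5.69 ± 0.51 (SE, adjusted p = 3.71e-28)), per the authors' deposited table. Idh3a, the catalytic subunit, ranged from 1151 to 2679 in C57BL/6J and from 1819 to 2747 in B6CASTF1, with a called 2-cell fall of -0.54 ± 0.24 (SE, adjusted p = 0.039) in the latter per the authors' deposited table.

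The next enzymes of the cycle were mostly lower in B6CASTF1. Ogdh, the E1 of the oxoglutarate dehydrogenase complex, rose, with 2634, 1734, 5903 and 20243 in C57BL/6J and 663, 613 and 2875 in B6CASTF1. Its 2-cell log2 fold change was 1.78 ± 0.47 (SE, adjusted p = 0.000564) and 2.23 ± 0.35 (SE, adjusted p = 9.04e-10) per the authors' deposited table, and the G1 to G2 rise in C57BL/6J was 1.77 ± 0.47 (SE, adjusted p = 0.00461). Dlst, the E2 of that complex, had 365, 830.4 and 99.3 in B6CASTF1, a called rise (1.19 ± 0.36 (SE, adjusted p = 0.00771)) followed by a called fall (-3.06 ± 0.41 (SE, adjusted p = 5.21e-13)) per the authors' deposited table. In C57BL/6J Dlst was between 37.4 and 206 and passed no test. As in the pyruvate dehydrogenase complex, the E1 gene was thus the one called higher at the 2-cell step, and the E2 gene was lower in B6CASTF1. Of the succinyl-CoA ligase genes, Suclg2 fell in both strains, from 726 to 132 and from 2117 to 308, with -2.46 ± 1.07 (SE, adjusted p = 0.0446) and -2.78 ± 0.35 (SE, adjusted p = 1.38e-14) per the authors' deposited table. Sucla2 and the shared alpha subunit Suclg1 fell in B6CASTF1 (-1.44 ± 0.22 (SE, adjusted p = 5.4e-10) and -1.91 ± 0.42 (SE, adjusted p = 1.53e-05) per the authors' deposited table) and passed no test in C57BL/6J. Fh1, fumarase, had 521, 613, 483 and 92.2 in C57BL/6J, not called, and 1420.1, 1434 and 115 in B6CASTF1, with -3.64 ± 0.23 (SE, adjusted p = 4.26e-54) per the authors' deposited table. Cs, citrate synthase, changed least of the cycle's called genes on the fold scale, apart from Idh3a, at 3341, 3429 and 5485 in B6CASTF1 (0.68 ± 0.14 (SE, adjusted p = 6.66e-06) per the authors' deposited table), and passed no test in C57BL/6J.

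**Figure D4:**
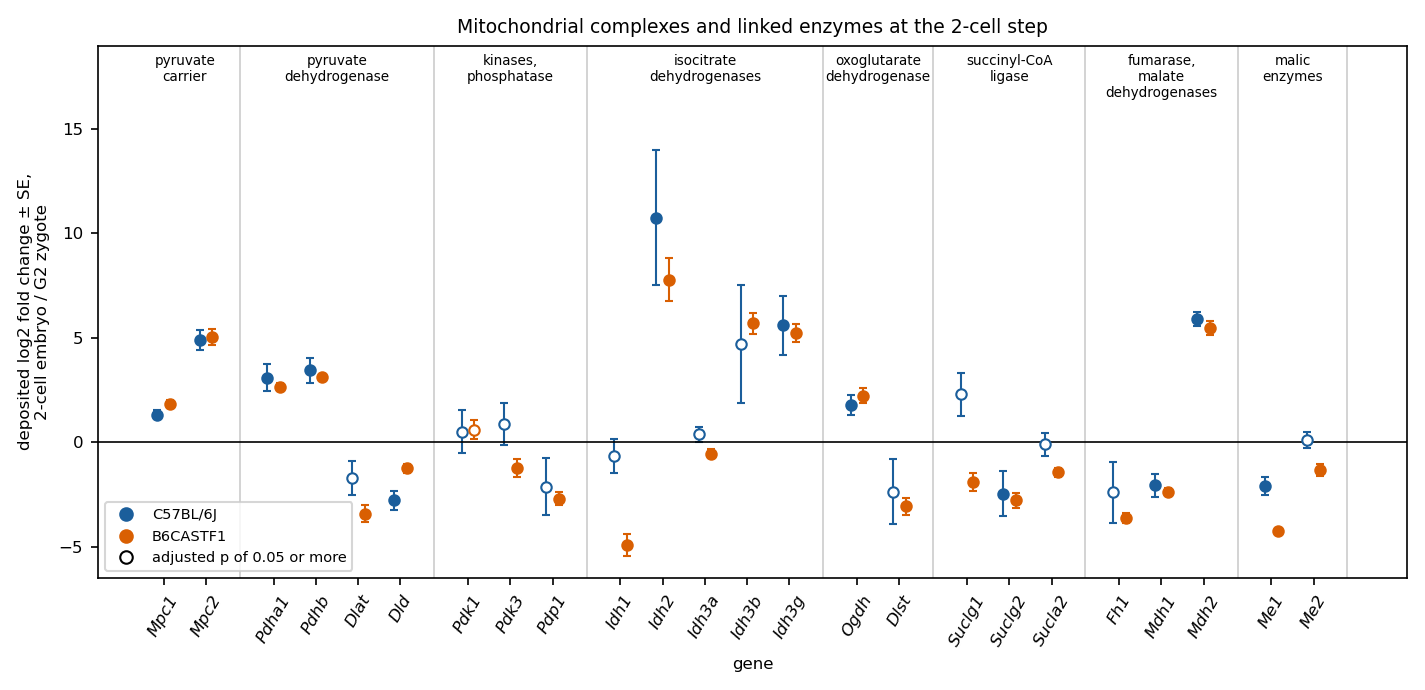
Deposited log2 fold change with its SE (vertical axis) at the 2-cell step for genes of mitochondrial complexes and linked enzymes, C57BL/6J in blue and B6CASTF1 in orange, filled where the adjusted p was under 0.05. Pdha1, Pdhb and Ogdh lie above 0 and Dld below 0 in both strains, while Suclg1 stands at 2.30 in C57BL/6J and -1.91 in B6CASTF1.

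The malic enzymes and glucose 6-phosphate dehydrogenase, which supply NADPH or feed malate back to pyruvate, were lower in 2-cell embryos than in G2 zygotes, apart from Me2 in C57BL/6J. Me1, the cytosolic malic enzyme, had 4299, 3597, 2942 and 689 in C57BL/6J and 8288, 15243 and 796 in B6CASTF1. In B6CASTF1 it rose from G1 to G2 before falling 19.1 times, with 0.88 ± 0.14 (SE, adjusted p = 4.5e-09) and -4.26 ± 0.16 (SE, adjusted p = 2.53e-161) per the authors' deposited table, and in C57BL/6J the 2-cell fall was -2.09 ± 0.42 (SE, adjusted p = 3.09e-06). Me2, the mitochondrial malic enzyme, had 610.5, 1151 and 456 in B6CASTF1, a called rise and a called fall, and 518, 855, 549 and 588 in C57BL/6J, with no call. G6pdx, which opens the pentose phosphate pathway, had 357, 2526, 2504 and 601 in C57BL/6J and 8216, 9945 and 668 in B6CASTF1. Its higher level in G1 zygotes than in MII eggs just missed the threshold (2.82 ± 0.89 (SE, adjusted p = 0.0556)), and its 2-cell fall was called in both strains (-2.06 ± 0.89 (SE, adjusted p = 0.0433) and -3.90 ± 0.19 (SE, adjusted p = 2.61e-90)), per the authors' deposited table. Pgd, the next oxidative enzyme, moved the other way in B6CASTF1, from 129 to 884 (2.78 ± 0.61 (SE, adjusted p = 1.46e-05) per the authors' deposited table), and passed no test in C57BL/6J at levels of 34.4, 17.4, 53.6 and 285.

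The strains were normalized apart, and the labels do not say whether they were handled together, so they were compared by their log2 fold changes only. Of 43 members tested in both at the 2-cell step, 20 were called in both, 14 higher in both and 6 lower in both, with 0 called in opposite directions. Of all 12573 genes tested in both, 20.7% were higher in both, 18.4% lower in both and 0.986% called in opposite directions. A further 17 members were called in B6CASTF1 alone (background 26.5%) and 1 in C57BL/6J alone (background 10.6%), at median SEs of 0.36 and 0.83, and 5 in neither (22.8% of all genes). The difference itself was tested as the B6CASTF1 minus the C57BL/6J log2 fold change over the root of the summed squared SEs, with a 2-sided normal p and Benjamini-Hochberg adjustment over all 12573 genes tested in both. At the 2-cell step 3 members had a higher change in B6CASTF1 (background 11.6%) and 7 a lower one (background 5.03%). At the G1 to G2 step 1 member was higher (background 1.04%) and 1 lower (background 0.879%) among 12517 genes.

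Suclg1 and Me2 had 2-cell values of opposite sign in the strains and a difference that passed. Suclg1 stood at 2.30 in C57BL/6J (not called) and -1.91 in B6CASTF1 per the authors' deposited table, a difference of -4.21 ± 1.12 (SE, adjusted p = 0.00236). Me2 stood at 0.10 in C57BL/6J (not called) and -1.34 in B6CASTF1 per the authors' deposited table, a difference of -1.44 ± 0.48 (SE, adjusted p = 0.0203). Idh1, not called in C57BL/6J, and Me1 had lower changes in B6CASTF1, with differences of -4.26 ± 0.96 (SE, adjusted p = 0.000209) and -2.16 ± 0.45 (SE, adjusted p = 3.7e-05). Pgam1 and Pkm, called in B6CASTF1 and not in C57BL/6J, had higher changes there, with differences of 4.59 ± 1.56 (SE, adjusted p = 0.0246) and 1.44 ± 0.49 (SE, adjusted p = 0.0244). Dld fell less there, with 1.54 ± 0.50 (SE, adjusted p = 0.0162). Tpi1 and Pgk1 had larger 2-cell rises in C57BL/6J, with differences of -2.20 ± 0.75 (SE, adjusted p = 0.0248) and -2.10 ± 0.74 (SE, adjusted p = 0.0319). Tpi1 had already risen by G2 in B6CASTF1, as given above. Among genes with a 2-cell call in both strains whose strain difference did not pass, Mdh2 had 5.89 and 5.47, Mpc2 4.91 and 5.05, and Ldhb -3.74 and -3.43 per the authors' deposited table.

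**Figure D5:**
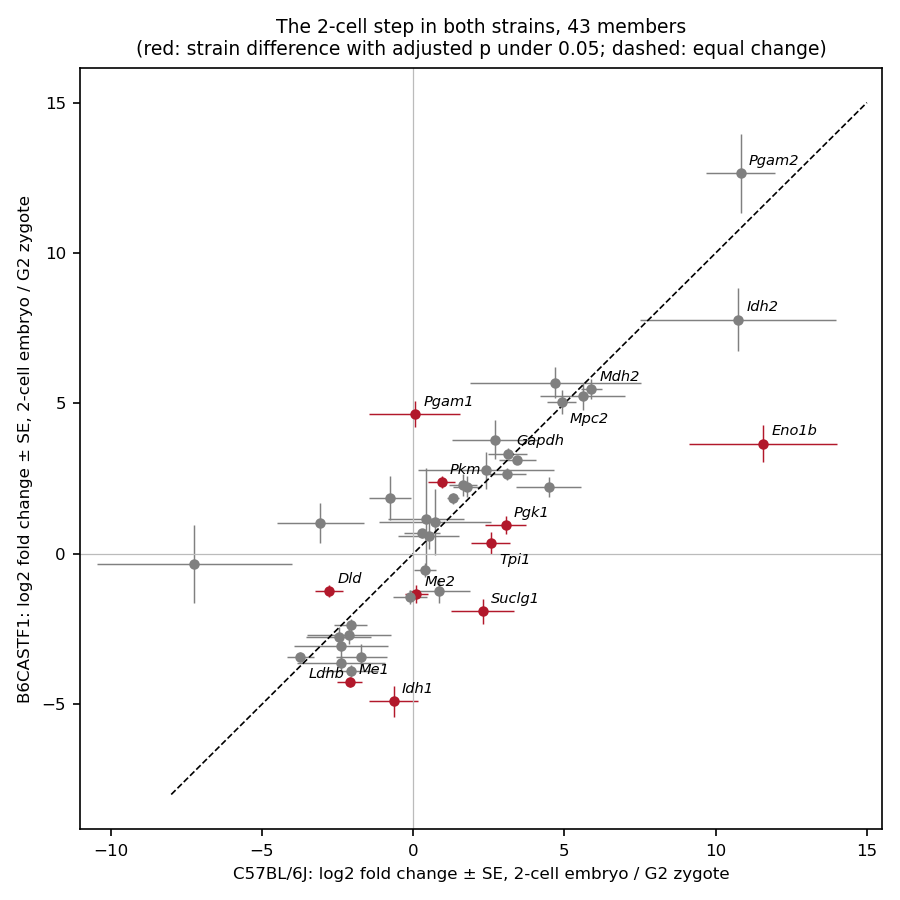
Each point is one of 43 members, with its log2 fold change and SE at the 2-cell step in C57BL/6J (horizontal) and B6CASTF1 (vertical), red where the strain difference passed the test. The 10 red points include Suclg1, right of 0 and below 0, and Pgam1, at 0.05 and 4.65, while Mdh2 and Ldhb lie near the dashed line of equal change.

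The other genes of these pathways were taken as 80 listed non-members, and their counts were read beside the same backgrounds. At the 2-cell step of C57BL/6J 13 of the 60 with an adjusted p were higher (21.7%, background 25%) and 15 lower (25%, background 25.3%), which is near the background. In B6CASTF1 31 of 72 were higher (43.1%, background 33.1%) and 15 lower (20.8%, background 26.8%). At the earlier steps of C57BL/6J 0 to 2 were called in either direction, beside backgrounds of 1.12% to 5.01%. From G1 to G2 in B6CASTF1 5 of 66 were called in each direction (7.58%, background 9.63%). Bpgm, which diverts a glycolytic intermediate to 2,3-bisphosphoglycerate, was among the most abundant, at 113786, 74805, 23107 and 1659 in C57BL/6J and 119701, 55086 and 4453 in B6CASTF1. Like Ldhb it fell at the 2-cell step, with log2 fold changes of -3.80 ± 0.59 (SE, adjusted p = 1.4e-09) and -3.63 ± 0.15 (SE, adjusted p = 3.21e-123) per the authors' deposited table. Tigar, a fructose bisphosphatase that slows glycolysis, rose at both later steps of both strains, to 7138 and 8553. Taldo1, the transaldolase of the pentose phosphate pathway, fell in zygotes and rose in 2-cell embryos, with 2039.8, 561, 142 and 3211 in C57BL/6J and 2079, 158 and 5707 in B6CASTF1.

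Unlike Pdp1, the second phosphatase gene Pdp2 was called higher at the 2-cell step of both strains. It went from 12.2 to 480 in C57BL/6J (5.30 ± 1.38 (SE, adjusted p = 0.000458)) and from 22.4 to 10219.5 in B6CASTF1 (8.83 ± 0.49 (SE, adjusted p = 4.14e-71) per the authors' deposited table). Lipt1 and Lias, which attach and make the lipoate arm of Dlat and Dlst, moved apart at the 2-cell step, with Lipt1 from 1903 to 0.854 and Lias from 1.04 to 1219 in C57BL/6J (adjusted p = 1.13e-19 and 3.29e-14 per the authors' deposited table). In B6CASTF1 Lipt1 went from 2599.8 to 117 and Lias from 17.0 to 4317, both called. Sdha, the flavoprotein of succinate dehydrogenase, fell in both strains, with -5.88 ± 0.82 (SE, adjusted p = 1.31e-11) and -3.66 ± 0.21 (SE, adjusted p = 1.18e-69) per the authors' deposited table. Of the other subunit genes of that enzyme, Sdhc was called lower at that step in both strains, while Sdhb stood at 211 and 1233 in C57BL/6J (not called) and rose from 205 to 456 in B6CASTF1 (adjusted p = 0.00365 per the authors' deposited table). Sdhd was not called in C57BL/6J, at 1353 and 1830.3, and fell from 2246 to 949 in B6CASTF1 (adjusted p = 0.000395 per the authors' deposited table). Of the transporters, Slc16a1, a lactate and pyruvate carrier of the cell membrane, rose in both, with 2.92 ± 0.84 (SE, adjusted p = 0.00169) and 2.17 ± 0.27 (SE, adjusted p = 2.9e-15) per the authors' deposited table. Hif1a, a regulator of glycolytic genes under low oxygen, fell from 2857 to 75.4 in C57BL/6J and from 2642 to 243 in B6CASTF1 (adjusted p = 4.35e-14 and 6.04e-60 per the authors' deposited table).

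Marker lists were read for stage identity and for other cells. The summed level of 10 egg genes went 501267, 257619, 120609 and 25369 in C57BL/6J and 501270, 175124 and 31955 in B6CASTF1, and that of 8 genes of the 2-cell embryo went 262, 374, 1154 and 32180 and then 476, 1970 and 51785, in the order of the stages. Obox6 alone gave 26179 and 32932 of the last sums. Dux went the other way at the 2-cell step, from 28.6 to 0.475 and from 147 to 16.0, not called. Of the egg genes, Zp3 rose at that step, from 890 to 2876 and from 2005 to 4252. The 13 cumulus and granulosa genes summed to 302 to 1609 in C57BL/6J, with 8 to 10 of them under 1, and to 1456 to 2582 in B6CASTF1, with 3 to 6 under 1. Cyp19a1 gave most of the sum in eggs and zygotes, with Inha at 284 in G1 zygotes of B6CASTF1. In 2-cell embryos Cyp19a1 stood at 4.05 and 24.5 and Amhr2 at 286 and 891, with Tnfaip6 (299) and Ptgs2 (203) next in B6CASTF1. The 9 sperm and testis genes summed to 77.6 to 263 over all groups. The 6 blood and oviduct genes summed to 49.7 to 123 in eggs and zygotes and to 6349 and 9388 in 2-cell embryos, mostly Hba-a1 and Epcam, with Hbb-bs listed at 0 in both strains. Their part in the members' changes was not tested.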

How the data were processed

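Poly(A) RNA of 20 samples in 7 groups was measured by Smart-seq2. bcl2fastq, kallisto, DESeq2, TopHat and Picard and the build mm10 are named, with no role, per the submitters' processing notes. The authors ran DESeq2 1.18.1 for the 5 comparisons, as the file names say. The deposited mean normalized count is a signal per gene over a strain's samples, per the file headers. The deposited log2 fold change has an SE, a shrunken form and a Wald statistic, a score of the change over its SE. The deposited p-values and adjusted p-values of the authors were used as listed, at a threshold of 0.05, because values of single samples are not listed. Depth per sample is thus unknown, and the SE gives the precision.

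Levels per stage were solved from the mean normalized count, weighted by samples per stage, and the fold changes. Strain differences were tested with a normal p from both SEs (scipy 1.17.1 and pandas 2.3.3 under Python 3.11.15, figures with matplotlib 3.10.9). The code was first run on simulated data with normal noise scaled by the deposited SEs, as the test assumes. That run cannot show whether a normal p suits SEs from 2 or 3 samples per group. Shares per kilobase used GENCODE M21 transcripts, as did the 31-base words; promoters came from RefSeq GRCm38.p6. Of the 49 members, 4 had no promoter entry used here. Values in full were to be given for the up to 8 called members with the largest Wald statistic in each direction of each comparison, for isozyme sets and for every strain difference, and for up to 3 called non-members of each list. The members and lists were chosen with earlier results of these data known. Alternatives were other thresholds, filters and centrings.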

Additional observations from a re-analysis of the deposited data

Results flagged for a closer look

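Strain differences that passed the test of the difference itself (normal p, Benjamini-Hochberg adjustment over all genes tested in both strains) concerned 2 members at the G1 to G2 step and 10 at the 2-cell step. Values are B6CASTF1 minus C57BL/6J log2 fold changes, and both steps share the G2 zygotes. Me2, mitochondrial malic enzyme, differed at both steps, by 1.56 ± 0.46 (SE, adjusted p = 0.0396) and then by -1.44 ± 0.48 (SE, adjusted p = 0.0203). From G1 zygote to 2-cell embryo its net log2 fold change was alike, at -0.54 in C57BL/6J and -0.42 in B6CASTF1, not tested. Ogdh differed between zygotes, by -1.88 ± 0.57 (SE, adjusted p = 0.0485). Me1 differed at the 2-cell step by -2.16 ± 0.45 (SE, adjusted p = 3.7e-05), Idh1 by -4.26 ± 0.96 (SE, adjusted p = 0.000209) and Suclg1 by -4.21 ± 1.12 (SE, adjusted p = 0.00236). Eno1b differed by -7.91 ± 2.52 (SE, adjusted p = 0.0149), with a G2 zygote level of 0.193 in C57BL/6J and most of its sequence shared with Eno1. Dld differed by 1.54 ± 0.50 (SE, adjusted p = 0.0162) and Pkm by 1.44 ± 0.49 (SE, adjusted p = 0.0244). Pgam1 differed by 4.59 ± 1.56 (SE, adjusted p = 0.0246), Tpi1 by -2.20 ± 0.75 (SE, adjusted p = 0.0248) and Pgk1 by -2.10 ± 0.74 (SE, adjusted p = 0.0319). The strains were normalized apart, and the labels do not say whether they were handled together.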

How the results depend on the processing

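At an adjusted p under 0.01, the C57BL/6J counts became 0 members lower at the step from MII egg to G1 zygote (from 1) and 2 higher from G1 to G2 (from 5), the B6CASTF1 count 1 lower from G1 to G2 (from 6), and the strain differences 0 higher and 0 lower between zygotes (from 1 and 1) and 0 higher and 3 lower at the 2-cell step (from 3 and 7). With an absolute log2 fold change of at least 1, B6CASTF1 had 3 higher and 2 lower from G1 to G2 (from 7 and 6). With calls kept only at a mean normalized count of at least 100, 3 member calls were lost. These were the 2-cell rises of Idh2 in C57BL/6J and of Hk1 and Eno3 in B6CASTF1. Recentring on well measured genes (mean normalized count from 100 upward) removed a median shift of 0.23 in C57BL/6J and 0.21 in B6CASTF1 at the 2-cell step. It added G6pdx as the 1 member higher from MII egg to G1 zygote, Gpi1 as higher from G1 to G2 in B6CASTF1, and Pfkm, Pfkp and Dlat as lower at the 2-cell step of C57BL/6J, and Gapdh no longer passed between B6CASTF1 zygotes. With SEs raised 1.5 times, strain differences numbered 0 and 0 between zygotes and 0 higher and 1 lower at the 2-cell step. With genes under a mean count of 100 in either strain dropped, or with each strain recentred, 0 members were lower between zygotes, since Ogdh no longer passed, and Pfkl was added as higher at the 2-cell step, at 2.62 and 2.65. Chosen after seeing the data, leaving out the 12 members that share at least 30% of their 31-base words gave 0 lower from MII egg to G1 zygote, 3 higher from G1 to G2 and 9 higher at the 2-cell step in C57BL/6J, and 2 lower from G1 to G2 and 15 higher at the 2-cell step in B6CASTF1. A smaller set lowers such counts by construction, but the share called higher at the 2-cell step was also nearer the background of all genes. With Benjamini-Hochberg adjustment over every gene with a p, Suclg2 and G6pdx no longer passed at the 2-cell step of C57BL/6J, nor Gapdh between B6CASTF1 zygotes. No member past the threshold changed its sign under these settings (Pgam1, not called at the 2-cell step of C57BL/6J, went from 0.05 to -0.17 on recentring), and B6CASTF1 levels moved by factors of 0.751 to 1.12 with equal weights. Leaving out a replicate could not be run, and no alternative per sample either. No paired analysis was possible because single-sample values are not listed in the tables. For the other changes the cause was not tested. Where levels were near 0, as for Pgam2, Idh2 and Eno1b in zygotes, the size of a change is limited by depth, which is unknown.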

Other observations

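Of 6 isozyme genes known from germ cells, Ldhc, the testis form of lactate dehydrogenase, was the 1 called higher at the 2-cell step of both strains, from 1.03 to 449 in C57BL/6J and from 17.1 to 940.2 in B6CASTF1, with 8.77 ± 2.09 (SE, adjusted p = 0.00011) and 5.78 ± 0.81 (SE, adjusted p = 3.76e-12) per the authors' deposited table. Pdha2, the intronless testis copy of Pdha1, went from 72.5 in G1 to 0.375 in G2 zygotes of C57BL/6J (adjusted p = 0.000318 per the authors' deposited table). In B6CASTF1 it stood at 79.0, 98.9 and 152, with no call. Got2, the mitochondrial aspartate aminotransferase, fell from 614 to 12.4 in C57BL/6J (-5.63 ± 1.25 (SE, adjusted p = 3.27e-05) per the authors' deposited table). At that step of B6CASTF1 it stood at 210.4 and 224, not called. Esrrb, an estrogen-related receptor, fell from 853 to 16.1 in C57BL/6J and from 328 to 31.3 in B6CASTF1, with -5.72 ± 0.98 (SE, adjusted p = 3.52e-08) and -3.39 ± 0.67 (SE, adjusted p = 1.34e-06) per the authors' deposited table. Whether Esrrb acts on any member was not tested.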
